A study of Mus musculus with 4 samples.

Results

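The microRNAs (miRNAs) mmu-miR-203, mmu-miR-205 and mmu-miR-875-5p, called miR-203, miR-205 and miR-875-5p from here on, were followed through early molar development in the mouse. They are 3 of the 696 miRNAs on the arrays and were taken by name, with earlier results of these data known. Mandibular molar tooth germs came from untreated ICR embryos, an outbred laboratory stock, on embryonic days 11, 12, 14 and 16, written E11 to E16. In this window the epithelium of the jaw thickens, forms a bud, folds into a cap and reaches the bell form of the molar. Each stage was measured on 1 array with 100 ng of total RNA, and the number of embryos behind an array is not given in the labels. No spread between animals and no p-value can therefore be given. Errors printed with ± are measurement errors of the arrays, combined over both stages where a difference is given.

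A miRNA guides the Argonaute protein to messenger RNAs that pair with its seed, the bases near its 5′ end, and so lowers their stability and translation. miR-203 and miR-205 are known from stratified epithelia such as epidermis. In mouse skin miR-203 is switched on as keratinocytes leave the basal layer and represses the progenitor factor p63. miR-205 is abundant in basal and progenitor cells of the skin and restrains negative regulators of PI3K signalling there, as shown in mouse. miR-875-5p is less studied. It has been described in human cancer cells as a repressor of EGFR that counters epithelial-mesenchymal transition, and in mouse tooth germs in work on condensation of the dental mesenchyme. The RNA came from whole germs, epithelium and mesenchyme together, so the arrays do not assign any of the 3 miRNAs to a layer, and the name stratified epithelium miRNA could not be checked here. In such bulk RNA, more cells of a type and more miRNA per cell cannot be told apart.

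The mature sequences show that the members are not a seed family. The RefSeq table (build GRCm38.p6) held 2 of the 3 members, miR-203 and miR-205. The array name miR-203 stands for the 3p arm and miR-205 for the 5p arm of today's nomenclature. Capitals mark the seed, bases 2 to 8, and sequences run 5′ to 3′.
mmu-miR-203-3p: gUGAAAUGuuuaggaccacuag
mmu-miR-205-5p: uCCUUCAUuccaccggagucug
The 2 seeds share 0 of 7 positions, and the 22-base miRNAs share 3 positions when laid side by side without gaps. Of the 1738 mature entries of the table, no other carries either seed, so no further array entry was grouped with them by this criterion. The precursors are shown next because each can release a second product, with the arm measured as a member in capitals.
Mir203 hairpin: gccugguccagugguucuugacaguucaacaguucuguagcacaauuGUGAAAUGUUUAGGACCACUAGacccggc
Mir205 hairpin: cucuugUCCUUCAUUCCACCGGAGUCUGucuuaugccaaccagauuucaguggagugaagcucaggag

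The 3 genes lie on different chromosomes. In GRCm38.p6 Mir203 occupies chr12:112130880-112130955 on the plus strand, and no other annotated gene spans it. Mir205 lies at chr1:193507463-193507530 on the minus strand, within the interval of the long non-coding RNA gene Mir205hg (chr1:193506460-193510210). Mir875 lies at chr15:35660970-35661047, within the interval of Vps13b (chr15:35371118-35931229), which encodes a lipid transfer protein of the Golgi. Grhl2, an epithelial transcription factor gene that has been named as its host, starts 1.57 Mb further on at chr15:37232821-37363569 and does not contain it. The annotation used gives gene intervals only, so exons and introns were not separated. On the strand opposite Mir203 the table lists a second miRNA gene, Gm51289, also called Mir203b (chr12:112130887-112130946). Its products are shown because 1 of them mirrors the measured miRNA and the other has a seed close to it.
mmu-miR-203b-5p: aGUGGUCCuaaacauuucac
mmu-miR-203b-3p: uUGAACUGucaagaaccacugg
All 20 bases of miR-203b-5p are complementary to a stretch of the 22-base miR-203-3p. The seed of miR-203b-3p has the same base as that of miR-203-3p at 6 of 7 positions. No array entry is named miR-203b, so these products were not analysed here.

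The arrays detected 209, 221, 249 and 250 of the 696 miRNAs at E11, E12, E14 and E16, and 197 on all 4. The 75th percentile of the signals of those 197 was higher at each stage, with 7.97, 8.63, 9.04 and 9.40 on the log2 scale. To compare stages, each log2 signal was taken relative to that percentile. A difference is the later minus the earlier stage, and a miRNA counted as higher or lower at 2-fold or more, a rule of size. Because the level of a whole array is not fixed by these data, each difference is given with its range over 7 scalings, counting quantile normalization and the authors' table, which coincide, once. They moved the median difference of all miRNAs between E16 and E11 from -0.74 to values between -0.92 and 0.69. One of them takes the percentile over the 180 of the 197 whose name has a miRNA gene in RefSeq. By that measure the arrays differed by -0.03 between E14 and E12, against 0.41 over all 197. The share of miRNAs past 2-fold at E12 versus E11 was 9.45% upward and 8.46% downward, taken over those detected on both arrays. At E14 versus E12 it was 12.7% higher and 15.1% lower, at E16 versus E14 7.36% and 13.4%, and at E16 versus E11 13.7% and 37.6%.

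miR-203 stayed low until E14 and was far higher at E16. Its deposited signal was 73.0 ± 7.22 at E11, 119.6 ± 10.8 at E12, 106 ± 9.21 at E14 and 725 ± 53.0 at E16. The E16 array stands alone, while the 3 earlier arrays lie close together. Relative to the 75th percentile these are log2 levels of -1.78, -1.73, -2.32 and 0.10. At E16 miR-203 was 5.34-fold higher than at E14, a log2 difference of 2.42 ± 0.16 with a range of 1.96 to 2.77 over the scalings. Among the 231 miRNAs detected at both stages, of which 7.36% were at least 2-fold higher, this difference ranked 1. Constant scalings of an array cannot change such a rank. Under quantile normalization, the 1 scaling that can, it was 2.

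Over the whole series miR-203 was 3.67-fold higher at E16 than at E11 (log2 1.88 ± 0.18, range 1.70 to 3.31). It ranked 11 of 205 there, where 13.7% of miRNAs were at least 2-fold higher. Only the last of the 3 steps passed 2-fold. From E11 to E12 the log2 difference was 0.04 ± 0.19, within its error of 0, with a range of -0.14 to 0.71. It was negative under 3 of the 7 scalings. At E14 miR-203 was lower than at E12 by a log2 difference of -0.58 ± 0.18, short of the 2-fold that 15.1% of miRNAs passed downward. That value was negative under all 7 scalings but shrank to -0.14 when entries without a miRNA gene were left out of the percentile. Its median counterpart over all 212 miRNAs detected at both stages was -0.40. The other arm of the precursor, miR-203*, was detected at E16 alone, with a signal of 6.51 ± 2.17. This is the lowest detected signal of that array, and a probe can go undetected above such a level. No difference between stages was therefore read from miR-203*.

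**Figure D1:**
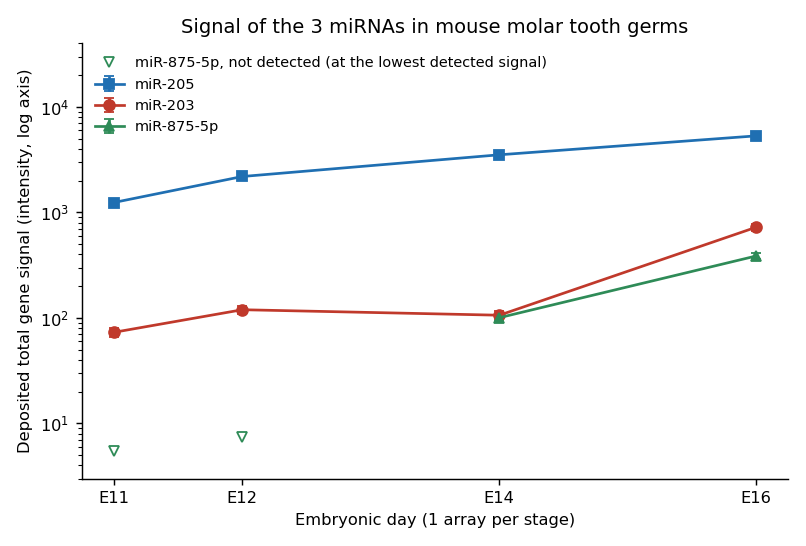
Deposited total gene signal (log axis) against embryonic day for miR-205, miR-203 and miR-875-5p, 1 array per stage, with bars for the stated measurement error; open triangles place miR-875-5p at the lowest detected signal of the arrays that did not detect it. miR-205 is higher at every stage than at the one before, miR-203 stays between 73.0 and 119.6 until E14 and reaches 725 at E16, and miR-875-5p appears at E14; the heights of different probes cannot be compared.

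miR-205 was detected on every array, with small and even differences between stages. Its deposited signal was 1241 ± 90.3 at E11, 2189.7 ± 159 at E12, 3517 ± 254 at E14 and 5317 ± 386 at E16. Each array is above the one before by more than its error, and the 75th percentile of the arrays was higher at each stage too. On the log2 scale relative to that percentile the levels were 2.31, 2.46, 2.74 and 2.98. The differences of the 3 steps were 0.15 ± 0.15, 0.27 ± 0.15 and 0.24 ± 0.15, each below 2-fold and the earliest about as large as its error.

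From E11 to E16 miR-205 was 1.58-fold higher (log2 0.66 ± 0.15). The range over the scalings was 0.49 to 2.10, and 3 of the 7 put it past 2-fold. It ranked 39 of 205 miRNAs, and 26 under quantile normalization, the only scaling that can change a rank. The direction of single steps was less firm: the step to E12 reached -0.03 and the step to E16 -0.22 at the low end of their ranges. The upper ends were 0.82 and 0.61, and the step to E14 ranged from 0.26 to 0.71. In all, 5 of the 7 scalings had miR-205 higher at every step. The other arm, miR-205*, has no entry on the arrays.

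miR-875-5p was not detected at E11 or E12 and was present from E14. Its deposited signal was 100.5 ± 6.51 at E14 and 387 ± 21.7 at E16, errors of 6.47% and 5.60% of the signal. Both detected signals stand many errors above 0, at 15.4 and 17.8 times their error. Against the lowest detected signal of the E12 array, miR-875-5p was at least 10.2-fold higher at E14 (9.29 to 13.8 over the scalings). The same bound for E16 against E11 was at least 26.1-fold (16.5 to 70.6). In that comparison 9.24% of the miRNAs not detected at E11 were detected at E16. These bounds are nominal, since a probe can go undetected above the lowest detected signal. With the 10th percentile of detected signals as the floor they were 4.29-fold and 10.9-fold. Of 475 miRNAs not detected at E12, 37 were detected at E14, or 7.79%.

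miR-875-5p was higher again at the end of the series. It was 3.01-fold higher at E16 than at E14, a log2 difference of 1.59 ± 0.12 with a range of 1.13 to 1.94. In this step miR-875-5p ranked 5 of 231 miRNAs, and 10 under quantile normalization, the only scaling that can change a rank. Together with miR-203 it passed 2-fold in this step under all 7 scalings, while miR-205 passed it under none. The opposite arm, miR-875-3p, was not detected at any stage. Neither was miR-599, whose gene lies 52 bases from Mir875 in the same Vps13b interval. This neighbour was looked up for its position, after the values of the members were known.

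**Figure D2:**
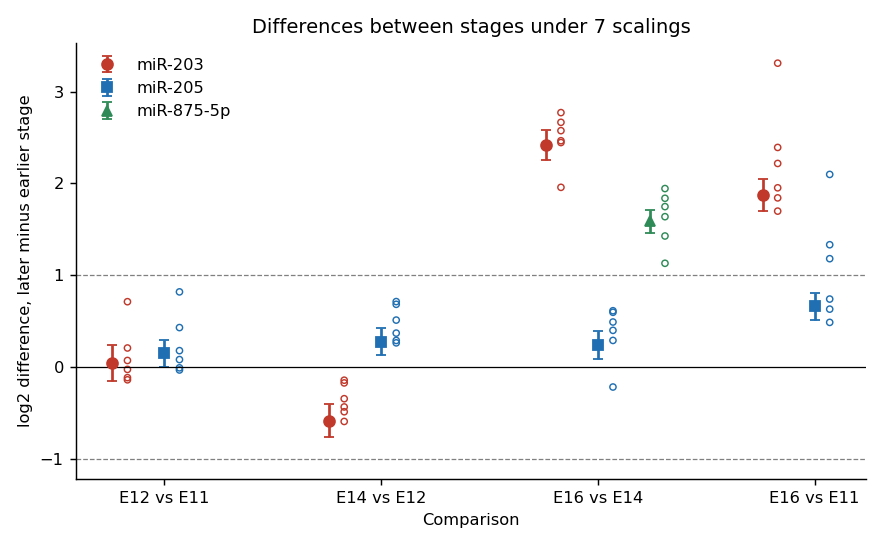
Log2 difference, later minus earlier stage, for the 3 comparisons of consecutive stages and for E16 versus E11. Filled symbols with bars are the values with their combined measurement errors, open circles the same differences under the 6 other scalings, and dashed lines mark 2-fold. Only miR-203 and miR-875-5p lie above 2-fold at E16 versus E14 under every scaling, and the spread of circles around miR-205 crosses 0 in the steps to E12 and to E16.

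The members parted from one another in the last step. A difference between members in their change is not altered by any constant scaling of an array. From E14 to E16 the log2 difference of miR-203 exceeded that of miR-205 by 2.18 ± 0.22, and that of miR-875-5p exceeded it by 1.35 ± 0.19. Quantile normalization, which is no constant shift, left these at 1.83 and 0.81. miR-875-5p lay below miR-203 by a log2 difference of -0.83 ± 0.21 in the same step.

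Earlier the order was turned. From E12 to E14 miR-203 lay below miR-205, at -0.86 ± 0.23 for miR-203 minus miR-205. From E11 to E12 the same quantity was -0.11 ± 0.24, within its error of 0. Over the whole series it was 1.21 ± 0.23, and 0.89 under quantile normalization, short of 2-fold.

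**Figure D3:**
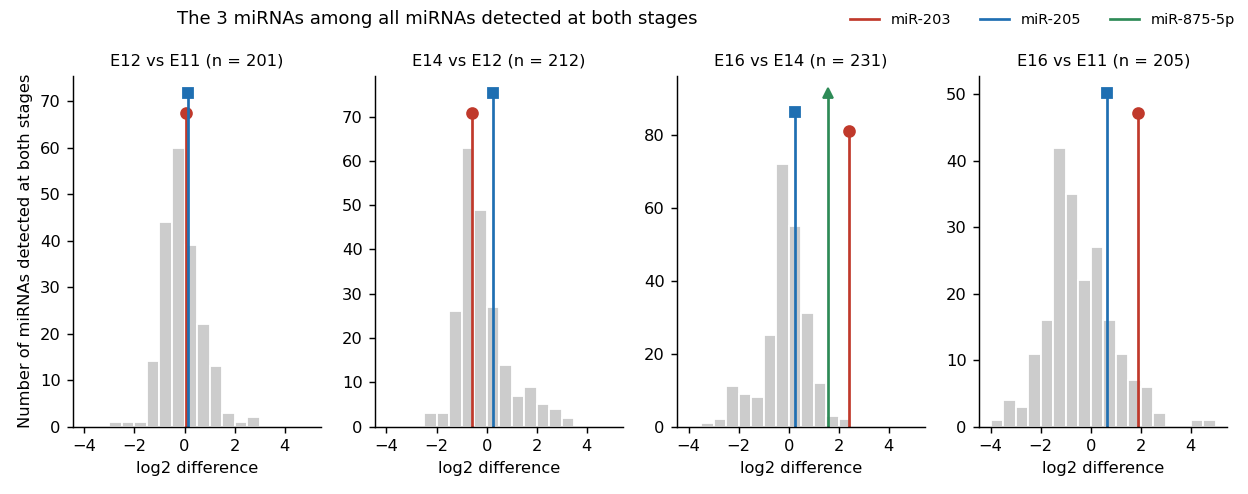
Number of miRNAs detected at both stages (grey bars) by log2 difference, later minus earlier stage, in bins of 0.5, with the members drawn as coloured lines whose height carries no value. miR-203 lies inside the bulk of the distribution in the steps to E12 and E14 and at its upper end at E16 versus E14, where miR-875-5p lies near the upper end and miR-205 near the centre.

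The members were set beside the miR-200 family (miR-200a, miR-200b, miR-200c, miR-141 and miR-429), miRNAs of epithelia in general that repress Zeb1 and Zeb2. None of them was at least 2-fold higher at E12 (0 of 4 detected at both stages) or in the step to E14 (0 of 5). The shares over all miRNAs were 9.45% and 12.7% there, and the family's median log2 differences were 0.62 and 0.50. Between E14 and E16 it was 2 of 5, miR-141 and miR-200a, where the share over all miRNAs was 7.36%. The median was 0.55 against -0.06 for all miRNAs. For E16 versus E11 it was 3 of 4, where the share was 13.7%, with a median of 1.35 against -0.74. miR-141 was not detected at E11 and is absent from the comparisons with E11. On the deposited signals the family's medians were 1.29, 0.91 and 0.91 in the 3 steps and 2.78 for E16 versus E11. Relative to the family's median, which cancels constant scalings, miR-203 was at -1.08 in the step to E14 (-0.58 for miR-203, 0.50 for the family) and at 1.86 in the step to E16. Within the family miR-141 came close to it in that last step, at 2.15 ± 0.18 against 2.42 for miR-203, a difference of 0.27 ± 0.25 about as large as its error. miR-205 was below the family's median throughout, by log2 differences of -0.47, -0.23 and -0.31 in the 3 steps.

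Of the 11 other miRNAs on a list from skin and keratinocyte work, 9 were detected at both E14 and E16 and 0 were at least 2-fold higher there, where the share over all miRNAs was 7.36%, with a median of 0.36 against -0.06 for all. For E16 versus E11 2 of 7 were higher and 1 lower, where the shares over all miRNAs were 13.7% and 37.6%, with a median of 0.75 against -0.74. The 2 higher were miR-31 (4.84 ± 0.35), above the 1.88 of miR-203, and miR-27b, and the 1 lower was miR-99b (-1.86 ± 0.15); miR-31 and miR-99b are named after their values were seen. Of its members of highest level, miR-27b, which has a near copy in miR-27a, was at 1.26 ± 0.17 for E16 versus E11. miR-24 and miR-23b, from the same cluster, were at 0.75 ± 0.15 and 0.24 ± 0.17. miR-125b-5p, a repressor of differentiation in mouse skin stem cells, was at -0.86 ± 0.17 (0.58 on the deposited signals).

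Markers of other cells were read beside these values. Of 8 mesenchyme miRNAs 7 were detected at every stage. Their summed deposited signal was 10982.5, 17094, 11293 and 13019.9 at E11, E12, E14 and E16. For the miR-200 family the sums were 481, 1072, 1739.8 and 3323. The heights of these sums cannot be compared between lists, because they come from different probes, and only their course over the stages is read. A single probe, miR-199a-3p, gave 9031 of the mesenchyme sum at E12. On the deposited signals the mesenchyme sum peaked at E12, while the miR-200 sum was higher at each stage than at the one before. These sums are not scaled, and the scaling percentile of the arrays was higher at each stage too. The peak at E12 is therefore read on the deposited signals only. After scaling, the mesenchyme list's median log2 difference was 0.17 from E11 to E12 (0.84 on the deposited signals). For E16 versus E11 that median was -0.40 (1.03 on the deposited signals). The median log2 difference of the mesenchyme list was -0.64 from E12 to E14, where miR-203 was at -0.58 and the median of all miRNAs was -0.40. From E14 to E16 the list's median was 0.03 (0.38 on the deposited signals), with values from -0.67 to 1.05. The highest was miR-140, the 1 of 7 at least 2-fold higher, where the share over all miRNAs was 7.36%.

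Blood and vessel markers had higher deposited signals at E16, and scaled values are given beside them. The 2 erythroid miRNAs summed to 404, 422, 665 and 1229.7, and the 2 endothelial miRNAs to 239.8, 446, 427 and 791. After scaling, the erythroid miR-451 was at 0.15 ± 0.15 for E16 versus E11, and the endothelial median was 0.09. From E14 to E16 alone, miR-451 was at 0.51 ± 0.15 and the endothelial median was 0.64, against -0.06 for all miRNAs. In that step the leukocyte miR-223 was at 0.98 ± 0.29 and the neural miR-128 at -0.18 ± 0.33. The 5 leukocyte miRNAs summed to 0, 17.6, 32.6 and 147, with miR-142-5p, miR-150 and miR-155 not detected on any array. Part of the sum at E16 came from miR-142-3p, detected at that stage alone with a signal of 64.4. The 5 neural miRNAs summed to 14.6, 98.8, 35.6 and 103, with the neuronal miR-124 and miR-9 not detected on any array. All 4 muscle miRNAs were undetected on every array. The part of these cells in the members' differences was not tested.

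Profiles over the 4 stages were compared by the root mean square distance between log2 levels, each profile centred on its own mean. Constant scalings do not change this distance. The profile nearest to miR-205 among 196 candidates was that of miR-200b, at a distance of 0.056, against a median distance of 0.64. miR-200b had log2 differences of 0.23, 0.15 and 0.22 in the 3 steps, beside 0.15, 0.27 and 0.24 for miR-205. Next came miR-24 (0.14), miR-484 (0.16), miR-23b (0.17) and miR-30d (0.17). A single log2 level of miR-205 has a measurement error of about 0.10, so the order of these 5 is not resolved. The profile of miR-205 spanned only 0.66, against 2.42 for miR-203, and distances to a flat profile tend to be small.

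miR-203 had no such close counterpart. Its nearest profiles were miR-195 (0.49), miR-30e (0.55), miR-15a (0.56), miR-376a (0.56) and miR-101b (0.57), against a median of 1.15 over the 196. All 5 were lower at E14 than at E12, but miR-195, miR-30e and miR-15a turned positive on the deposited signals and with the percentile over RefSeq miRNAs, and miR-30e under 3 of the 7 scalings in all. Their step to E16 was smaller than that of miR-203, between 0.92 for miR-15a and 1.48 for miR-376a. miR-205 lay at 0.78 from miR-203. In all, 10 of the 197 miRNAs detected on every array, miR-203 among them, were lowest at E14 and highest at E16. Under the 6 scalings that gave miR-203 this shape, the number ranged from 6 to 16.

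**Figure D4:**
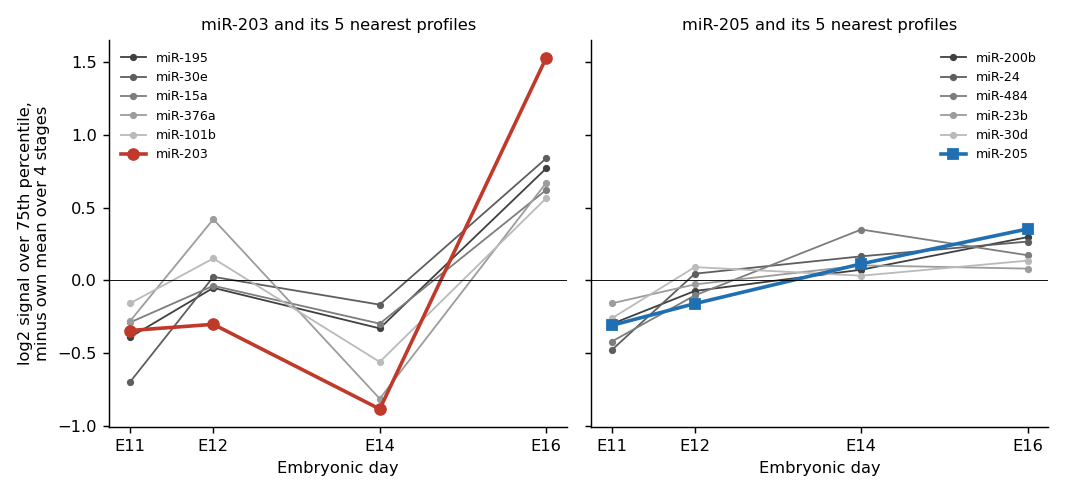
Log2 signal over the 75th percentile, minus each miRNA's own mean over the 4 stages, against embryonic day, for miR-203 (left) and miR-205 (right) with the 5 nearest profiles of each in grey. The grey lines follow miR-205 closely, with distances of 0.056 to 0.17, and under this scaling share the dip at E14 with miR-203 but not the height of its last step.

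For miR-875-5p the comparison was with the other miRNAs of the same detection pattern, not detected at E11 and E12 and detected at E14 and E16. There were 14 with miR-875-5p, and its difference between E16 and E14 ranked 2 among them, after miR-29a (1.83 ± 0.45), a repressor of collagen genes. The nearest to it were miR-29a, miR-338-3p (1.27 ± 0.48), miR-185 (1.02 ± 0.42), miR-497 (0.58 ± 0.27) and miR-221 (0.53 ± 0.26). miR-29a and miR-338-3p differed from miR-875-5p by less than their errors. The errors of these 5 are wider than the 0.12 of miR-875-5p because their E14 signals were only 12.5 to 40.8.

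**Figure D5:**
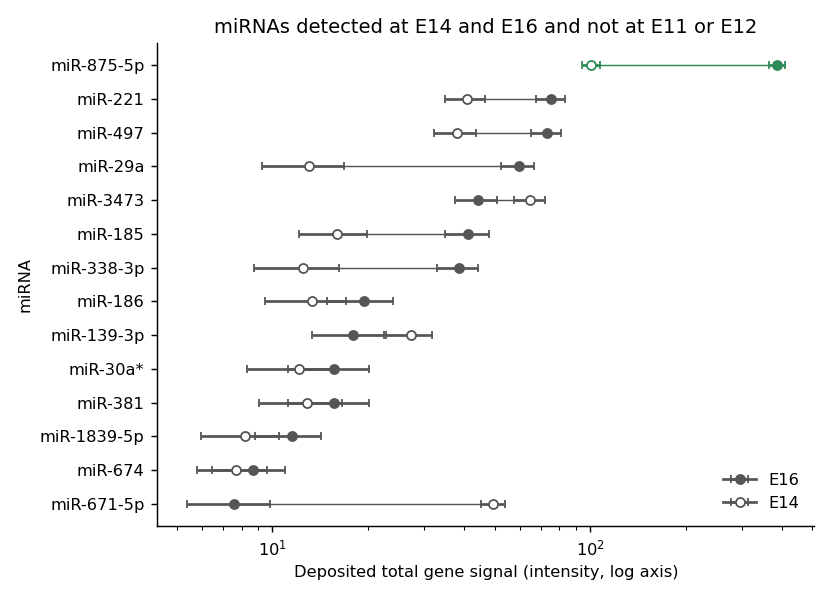
Deposited signal (log axis) at E16 (filled) and E14 (open) of the 14 miRNAs detected at those stages and not at E11 or E12, with bars for the stated measurement error. miR-875-5p, in green, has 387 at E16 against 100.5 at E14, with bars far apart, while for several others the bars of both stages overlap; heights of different probes cannot be compared.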

How the data were processed

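Per the labels' protocols, the RNA was labelled with Cy3 after phosphatase treatment and hybridised to Agilent miRNA arrays, so each array has 1 colour. Per the file headers, the deposited intensity is the total gene signal, with its error and a detection flag. An undetected entry is written as 0.1. The software version and the background correction are not stated there. The authors' value table, also an intensity on a linear scale (medians of 123, 106, 83.7 and 83.0 over detected values), was recovered within 0.1% by quantile normalization for every detected miRNA and served as an alternative. No centring was found.

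The 22 control entries were left out. Log2 signals were taken relative to the 75th percentile of the 197 miRNAs detected on all 4 arrays, with Python 3.11.15, numpy 2.4.6 and pandas 2.3.3. Errors combine both stated signal errors. With 1 array per stage, the number of arrays limits the precision, and no test was possible. The code was tested on simulated data. Of 696 names, 656 matched a RefSeq miRNA gene. Named were the members, their other arms, up to 4 members of highest level per list, and the 5 nearest profiles. Members and lists were chosen with earlier results of these data known. Alternatives covered the scaling, the floor of bounds, low signals and the fold that counts.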

Additional observations from a re-analysis of the deposited data

How the results depend on the processing

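No paired analysis was possible because each stage has 1 array. Of 201 recomputed values 138 stayed within the 95% interval that the measurement error gives around the value reported (for counts, within 1.5 times it), 63 moved and none of the differences past 2-fold changed sign. Part of the 138 was fixed in advance, because constant scalings cannot change the differences between members. The tally also holds the authors' table (21 stayed, 4 moved) beside quantile normalization, with which it coincides. It therefore overstates how stable the values are. Leaving the members and the epithelial lists out of the percentile moved nothing. What the arrays' overall level was is not fixed by these data, and the cause of each shift other than the scaling itself was not tested. On the deposited signals, without scaling, the log2 differences of miR-203 were 0.71 (E12 vs E11), -0.17 (E14 vs E12), 2.77 (E16 vs E14) and 3.31 (E16 vs E11). Those of miR-205 were 0.82, 0.68, 0.60 and 2.10, and that of miR-875-5p was 1.94 (E16 vs E14), with bounds of 13.5-fold (E14 vs E12) and 70.6-fold (E16 vs E11). Median scaling gave 2.39 for miR-203 and 1.18 for miR-205 (E16 vs E11), 1.84 for miR-875-5p (E16 vs E14), and bounds of 12.0-fold and 37.3-fold. With the percentile over miRNAs that have a RefSeq gene, miR-203 was at -0.14 (E14 vs E12) and 1.96 (E16 vs E14), miR-205 at 0.71 and -0.22, and miR-875-5p at 1.13, with bounds of 13.8-fold and 23.1-fold. Quantile normalization and the authors' table gave the same values, 0.61 (E16 vs E14) and 1.33 (E16 vs E11) for miR-205, a bound of 16.5-fold for miR-875-5p (E16 vs E11), and 0.81 for miR-875-5p minus miR-205. The 10th percentile floor gave bounds of 4.29-fold and 10.9-fold.

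Counts of miRNAs past 2-fold depended more on the setting. At E12 vs E11 19 were higher and 17 lower; 46 were higher and 2 lower without scaling, 12 and 10 without low signals (under 3 times the lowest detected), 39 and 52 past 1.5-fold, and 6 and 2 past 3-fold. Lower were also 26 with the percentile over all probes and 26 with that over RefSeq miRNAs. At E14 vs E12 32 were lower, against 18 with median scaling, 9 without scaling, 7 with RefSeq miRNAs, 78 past 1.5-fold and 6 past 3-fold. At E16 vs E14 17 were higher, against 28 with all probes, 30 with median scaling, 36 without scaling, 6 with RefSeq miRNAs, 37 past 1.5-fold and 5 past 3-fold. Lower at that step were 31, against 55 with RefSeq miRNAs, 54 past 1.5-fold and 20 past 3-fold. At E16 vs E11 28 were higher and 77 lower, against 44 and 35 with median scaling, 92 and 9 without scaling, and 15 and 30 past 3-fold.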

Other observations

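The dip of miR-203 at E14 rests in part on the scaling. It was lowest at E14 and highest at E16 under 6 of the 7 scalings; on the deposited signals its lowest stage was E11. The 10 miRNAs of this shape were miR-101b, miR-126-3p, miR-140, miR-15a, miR-203, miR-30e*, miR-362-5p, miR-376a, miR-434-5p and miR-96. With the percentile over all probes 16 had this shape, with median scaling 15 and with quantile normalization 12, miR-203 among them each time. With the percentile over miRNAs that have a RefSeq gene, 6 had it: miR-101b, miR-140, miR-203, miR-376a, miR-434-5p and miR-96. Of the 10, 5 were also at least 2-fold higher at E16 than at E14, namely miR-203, miR-376a, miR-101b, miR-362-5p and miR-140. The last of these, a cartilage miRNA, is on the mesenchyme list.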
